A study of Oryza sativa with 4 samples.

Results

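LHCP (LOC4333359), RBCS (LOC4351966) and PSAH (LOC4339593) are 3 nuclear genes of rice photosynthesis, described here in young panicles from before stage 5. They were chosen by a measured value, their rise from 2013 to 2014, so that rise is given below as a description with no test. All probe sets that the platform's annotation ties to 1 of these genes alone were taken, which gave 6 of the 22436 single-gene probe sets and 3 of the 17905 genes measured. RBCS had 4 probe sets, and LHCP and PSAH had 1 each. None was left out by a filter, because all probe sets were fitted.

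The study compared the wild type ZH11 (WT) with ago2-1, an antisense line of OsAGO2, which belongs to the argonautes, proteins that bind small RNAs. Plants of both genotypes grew under normal field conditions, and each genotype was measured on 1 Affymetrix array in 2013 and 1 in 2014, which gave 4 arrays and n = 2 per genotype. The age of the plants, the number of panicles in an array, the hour of harvest and the number of independent antisense lines are not given in the sources used here, so p-values measure only the spread between these arrays. The year also stands for the season and the array run, and these cannot be told apart. The antisense target AGO2 had log2 intensities of 9.84 for WT and 9.92 for ago2-1 in 2013, and of 10.24 and 10.68 in 2014, so it was not lower where the label says ago2-1. Genotype directions below are therefore those of the arrays labelled ago2-1.

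LHCP encodes a light-harvesting protein that binds chlorophyll a and b in the antenna of the photosystems. RBCS encodes the small subunit of Rubisco, the enzyme that fixes carbon dioxide in the chloroplast stroma, and PSAH encodes subunit H of photosystem I. These proteins are made in the cytosol and imported into chloroplasts. In plants, their transcripts are known to depend on light, on chloroplast state and on the circadian clock, and to be abundant in leaves. The glumes and rachis of a panicle become green as it develops.

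Values are log2 probe set intensities after quantile normalization of the 4 arrays unless stated otherwise. The level of one probe set is not set against that of another, because probe sets differ in how strongly they bind. LHCP measured 9.24 (WT) and 9.43 (ago2-1) in 2013, and 12.95 and 12.75 in 2014. On the scale as deposited, its intensities were 486 and 559 in 2013 and 9974 and 8607 in 2014. Both arrays of 2014 were far above both arrays of 2013, whatever the genotype. The mean change from 2013 to 2014 was 3.52 ± 0.27 log2 (SD over the 2 genotypes), which is 11.5-fold, and it ranked 34 among the rises of all 57194 probe sets.

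The probe set of RBCS with the highest mean, Os.12594.1.S1_x_at, lay at 8.28 for WT and 8.43 for ago2-1 in 2013, and at 10.90 and 10.62 in 2014. Its change was 2.40 ± 0.31 log2 (SD, n = 2 genotypes) or 5.29-fold, and the deposited intensities ran from 247 and 280 in 2013 to 2346 and 1919 in 2014. The next, Os.39038.1.A1_at, lay at 6.41 and 6.67 in 2013 and at 7.61 and 7.49 in 2014, a change of 1.00 ± 0.26. All of these were higher on both arrays of 2014 than on both arrays of 2013.

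The other RBCS probe sets were dim. Os.39363.1.A1_x_at lay at 3.79 and 3.90 in 2013 and at 5.42 and 5.22 in 2014, a change of 1.47 ± 0.22. Os.49262.1.A1_x_at lay at 2.74 and 2.88 in 2013, where the 10th percentile of all probe sets was 2.75, and at 3.57 and 3.30 in 2014, a change of 0.62 ± 0.29. The years did not overlap on either, but the size of the change differed by 1.78 log2 between the RBCS probe sets, from 0.62 to 2.40. Rice holds several RBCS genes of near-identical sequence, and 3 of the 4 probe sets carry the _x_at suffix that Affymetrix gives to probes shared with other transcripts. Their signal may therefore belong to more than 1 RBCS gene, and the 4 probe sets are not separate evidence.

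PSAH lay at 9.70 and 9.79 in 2013 and at 11.40 and 11.26 in 2014. Its deposited intensities were 676 and 716 in 2013 and 3325 and 3006 in 2014. The change of 1.59 ± 0.16 log2 (3.0-fold) had the smallest spread between the genotypes of the 6 probe sets. The year separated the arrays of PSAH as it did those of LHCP and RBCS.

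**Figure D1:**
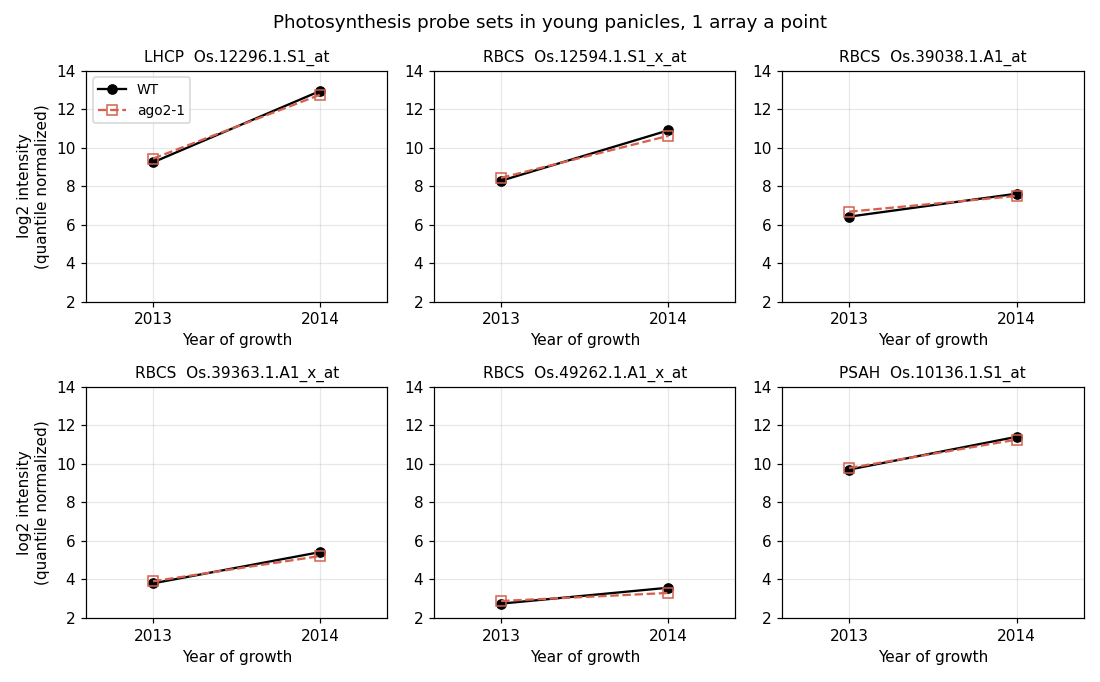
Log2 intensity (quantile normalized, vertical axis) of the 6 probe sets in 2013 and 2014, with 1 array a point, filled circles for WT and open squares for ago2-1. In each panel both points of 2014 lie above both points of 2013, and the lines of the genotypes cross.

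The rise depends on how the years are put on 1 scale, since the authors' values of 2014 lie higher as a whole. The arrays had median intensities of 28.8 and 29.1 in 2013 and of 45.2 and 45.3 in 2014. The median change of all probe sets on the deposited scale was 0.71 log2. LHCP changed by 4.15 on that scale, by 3.5 after centring each array on its median and by 3.54 after cyclic loess, against 3.52 after quantile normalization. RBCS changed by 3.01, 2.37 and 2.38, and PSAH by 2.18, 1.54 and 1.56, in the same order. The direction was the same under every scaling for all 6 probe sets, whose genes were chosen for this rise.

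**Figure D2:**
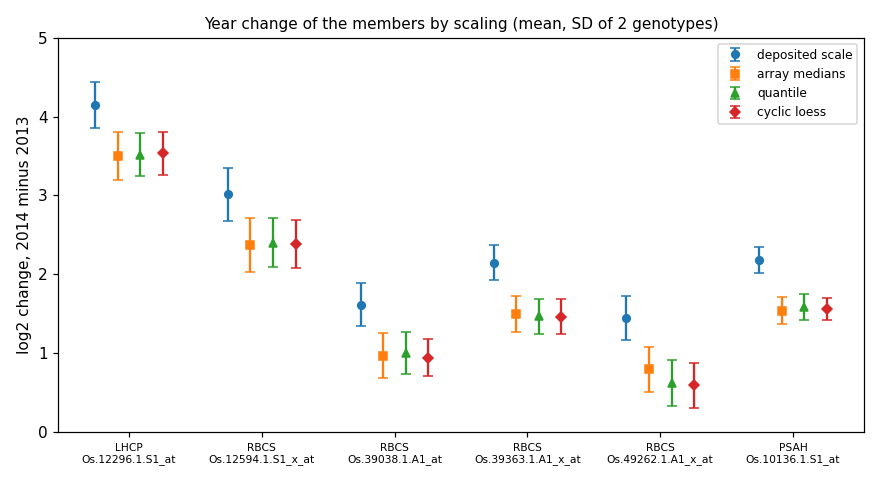
Log2 change from 2013 to 2014 (vertical axis) of each probe set under 4 scalings; symbols are the mean over the 2 genotypes and bars its SD. The deposited scale lies highest for each probe set and the other 3 scalings lie close together, at 3.5 to 3.54 for LHCP.

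Whether ago2-1 differs from WT in these genes is the comparison that the choice of members did not use. None of the 6 probe sets passed the limma test of genotype (adjusted p = 1 for each), where 1 of 57194 probe sets passed, 0.00175% of all. The mean differences lay between −0.07 and 0.07 log2. The 95% interval for LHCP ran from −4.43 to 4.43 in this fit, because the change between the years counts as spread there. The members were chosen for a large change between the years, so they could hardly pass this fit. It therefore says little about genotype.

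With year as a block, the 95% interval of the difference was −0.37 to 0.37 log2 for LHCP (adjusted p = 1.00). It was −0.45 to 0.32 for the leading RBCS probe set (adjusted p = 0.92) and −0.36 to 0.30 for PSAH (adjusted p = 0.96). In that limma fit 67 probe sets passed, 0.117% of all, and none of the 6 was among them. Differences inside these intervals cannot be told from 0 with 4 arrays.

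The sign of the genotype difference was not the same in the years. In 2013 all 6 probe sets were higher in ago2-1 than in WT, by 0.08 for PSAH, 0.19 for LHCP and 0.11 to 0.26 for RBCS. In 2014 all 6 were lower on the ago2-1 array, by −0.15 for PSAH, −0.19 for LHCP and −0.12 to −0.28 for RBCS. The rise over the years was therefore larger in WT, at 3.71 for LHCP, 2.62 for the leading RBCS probe set and 1.70 for PSAH, than in ago2-1, at 3.32, 2.18 and 1.47. Each year holds 1 array per genotype, so the crossing was not tested. Of all probe sets, 22.8% were higher on the ago2-1 array in 2013 and lower in 2014, and the SD of all genotype differences was 0.40 in 2013 and 0.29 in 2014. None of these differences was larger than the SD of its year.

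**Figure D3:**
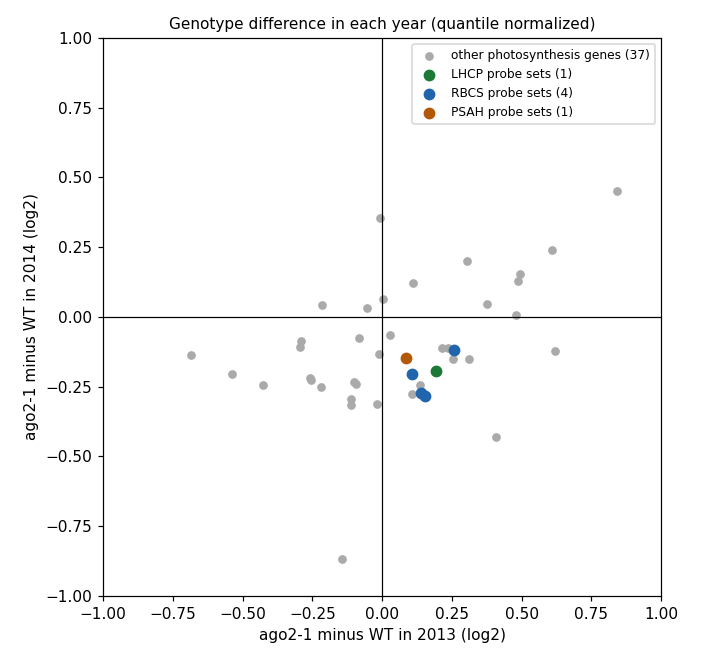
Genotype difference, ago2-1 minus WT in log2 units after quantile normalization, in 2013 (horizontal axis) and in 2014 (vertical axis). Coloured points are the 6 probe sets of LHCP, RBCS and PSAH, which all lie in the lower right corner of the plot (higher in 2013, lower in 2014), and grey points are 37 other photosynthesis genes, of which 9 lie there.

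The other genes of photosynthesis were listed by symbol or synonym, and 37 of 78 listed genes had a probe set of their own, among them none of the listed plastid-encoded genes. Each gene is given by the probe set with the highest mean. Between the years 10 of the 37 genes rose and 3 fell by the limma test with genotype as a term, which is 27.0% and 8.11%, where 11.3% of all 17905 genes passed higher and 10.8% lower. The median change of the 37 was 0.16 log2, and that of all genes was −0.01. The remaining 24 did not pass. This fit of year leaves 1 residual degree of freedom, and both arrays of a year share a season and an array run. The p-values of year here and below therefore do not measure the spread between seasons or array runs. The 10 genes also passed after median centring, after cyclic loess and without either array of 2013. Without either array of 2014 no gene of the 37, and none of all 17905, passed by limma, while 10 of the 37 had an unadjusted p under 0.05 in the higher direction in each of these fits. On the deposited scale 28 of the 37 passed higher, as did 74.3% of all genes. Without probe sets of the _x_at or _s_at suffix, 11 of 34 genes passed higher and 3 lower. In that fit 11.6% of all genes passed higher and 10.8% lower.

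Among proteins close to LHCP in function, both measured genes rose. CAB2R (LOC4324599), another chlorophyll a/b-binding protein that also bears the name LHCP, lay at 12.09 for WT and 12.33 for ago2-1 in 2013 and at 13.74 and 13.63 in 2014, a rise of 1.48 ± 0.25 log2 (SD, n = 2 genotypes, adjusted p = 0.0053). Its second probe set rose by 2.47. RCABP69 (LOC4343583), named as a chlorophyll a/b-binding protein as well, rose by 2.09 ± 0.59 (adjusted p = 0.0060), with 2.51 in WT and 1.67 in ago2-1. Its only probe set carries the _s_at suffix, so its signal may be shared with other transcripts.

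PSAG (LOC4337812), a photosystem I subunit like PSAH, was the only other measured gene of its list. It lay at 6.36 and 6.85 in 2013 and at 9.43 and 9.58 in 2014, a rise of 2.90 ± 0.24 (adjusted p = 0.0013). A second PSAG probe set did not follow it, with a change of −0.39 (adjusted p = 0.092), so the rise is that of 1 probe set and is not settled for the gene.

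In electron transport, 2 of 6 measured genes rose and 1 fell. PETE (LOC4339833), which encodes plastocyanin, the copper protein that carries electrons to photosystem I, rose by 1.18 ± 0.02 (adjusted p = 0.0059). PETC (LOC4343570), the Rieske iron-sulfur protein of the cytochrome b6f complex, rose by 1.22 ± 0.33 (adjusted p = 0.0097). LFNR1 (LOC4339874), a leaf ferredoxin-NADP reductase, fell by 0.59 ± 0.09 (adjusted p = 0.028), a call that ended on the deposited scale, where its change was 0.05. The other FNR genes changed by 0.32 (LOC4342399, adjusted p = 0.11, with a second probe set that rose by 0.50, adjusted p = 0.043) and 0.06 (LOC4334338, adjusted p = 0.76), and ndhM, a subunit of the plastid NDH complex, by 0.32 (adjusted p = 0.12).

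In carbon fixation, 2 of 6 measured genes rose beside RBCS. RCA (LOC4351224), the activase that frees Rubisco of bound sugar phosphates, rose by 0.96 ± 0.29 (adjusted p = 0.014), and its other 3 probe sets rose by 0.71 to 0.81. ALDP (LOC4349897), an aldolase, rose by 1.10 ± 0.53 (adjusted p = 0.020). The leading probe sets of RCA and ALDP carry the _x_at suffix, so their signal may be shared with other transcripts. RBCS1 (LOC4352014), another small subunit gene of Rubisco, was dim on every array, at 2.20 and 2.31 in 2013 and 2.45 and 2.18 in 2014, and its change of 0.06 did not pass (adjusted p = 0.80). The triose phosphate translocator gene TPT changed by −0.41 (adjusted p = 0.097) and the aldolase gene FBA1 by −0.11 (adjusted p = 0.59). CFBP1, a fructose-1,6-bisphosphatase, had unlike probe sets, at 0.25 (adjusted p = 0.25) and 1.5 (adjusted p = 0.0041).

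**Figure D4:**
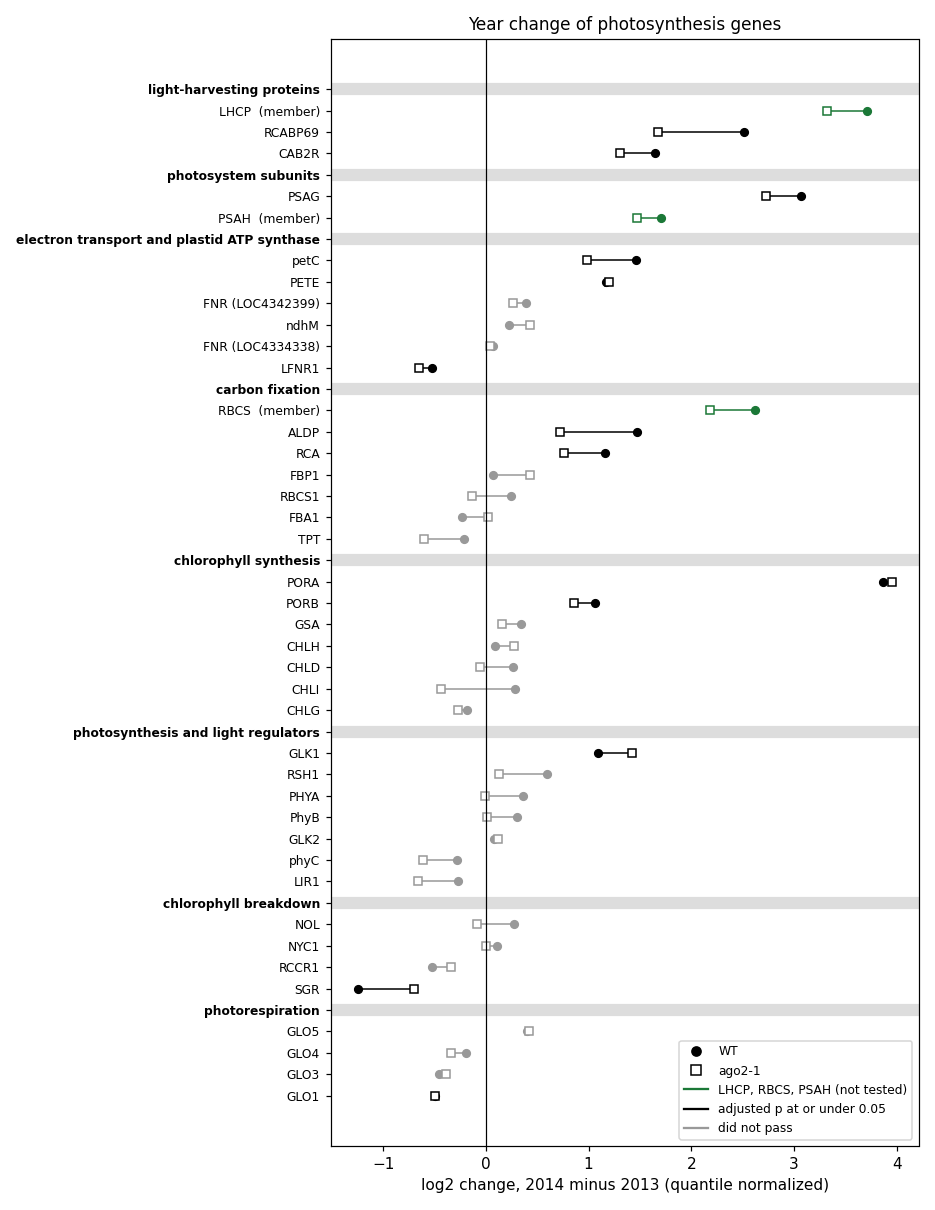
Log2 change from 2013 to 2014 (horizontal axis, quantile normalized) of each measured photosynthesis gene, with a circle for WT, a square for ago2-1 and a line joining them. LHCP, RBCS and PSAH are green, genes that passed the limma test are black and the others are grey; the far right is held by PORA at 3.91 and LHCP at 3.52.

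Of 7 chlorophyll synthesis genes, 2 rose and both encode protochlorophyllide oxidoreductases, which carry out the light-dependent step of the pathway. PORA (LOC4337415) lay at 6.78 and 6.72 in 2013 and at 10.64 and 10.67 in 2014. Its rise of 3.91 ± 0.06 (adjusted p = 0.00048) was larger than that of LHCP on every one of the 4 scalings. PORB (LOC4349004) rose by 0.96 ± 0.14 (adjusted p = 0.010) on its only probe set, which carries the _x_at suffix. CHLG changed by −0.23 (adjusted p = 0.22) and CHLI by −0.07 (adjusted p = 0.81). The magnesium chelatase gene CHLH had unlike probe sets, at 0.18 (adjusted p = 0.33) and 1.67 (adjusted p = 0.0091). So had GSA, at 0.25 (adjusted p = 0.21 by limma) and, on a dimmer probe set, −0.50 (adjusted p = 0.039).

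Among 7 regulators only GLK1 (LOC4340977), a transcription factor known to promote chloroplast development, passed. It lay at 6.91 and 6.37 in 2013 and at 8.0 and 7.80 in 2014, a rise of 1.26 ± 0.24 (adjusted p = 0.0072). Its relative GLK2 changed by 0.10 (adjusted p = 0.58), and of its other 3 probe sets 1 rose, by 0.79 (adjusted p = 0.025), while the others changed by −0.42 and 0.42. The light-induced gene LIR1 changed by −0.47 (adjusted p = 0.072) and the phytochrome gene PHYC by −0.45 (adjusted p = 0.072).

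In chlorophyll breakdown, 1 of 4 genes passed: SGR (LOC4347672), the stay-green gene, fell by 0.97 ± 0.39 (adjusted p = 0.018), and its second probe set fell by 1.18 (adjusted p = 0.022). The chlorophyll b reductase genes NOL and NYC1 changed by 0.10 and 0.05, and RCCR1, a red chlorophyll catabolite reductase, by −0.44 (adjusted p = 0.060). In photorespiration, 1 of 4 passed: GLO1, a glycolate oxidase, fell by 0.50 ± 0.00 (adjusted p = 0.039), while its second probe set changed by 0.15 (adjusted p = 0.60). These 2 calls and that of LFNR1 were made relative to the shift between the years. On the deposited scale none of the 3 passed, and SGR changed by −0.35, LFNR1 by 0.05 and GLO1 by 0.10. None of the 3 passed without the WT array of 2013, and 1 did without the ago2-1 array of 2013. No gene of the 37 passed the test of genotype with or without year as a block.

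By their profiles over the 4 arrays, each centred on its mean, LHCP and RBCS lay 1.12 log2 apart (Euclidean distance), RBCS and PSAH 0.82 and LHCP and PSAH 1.93. The genes nearest to LHCP among all measured were LOC4350844 at a distance of 0.17 and LOC107277382 at 0.21. Nearest to RBCS was LOC4344439, which bears the synonym ferredoxin, at 0.07, with log2 values of 9.54 and 9.60 in 2013 and 12.11 and 11.83 in 2014. Nearest to PSAH were LOC4344899 at 0.07 and LOC4342370 at 0.08. Only 82 measured genes carry a symbol other than a LOC number in the symbol column of the reference table, where PORA, CAB2R and many others are named as synonyms alone. Among these 82 the 3 nearest were CEBIP, SPO11-3 and AIP2 for each of the 3 members, with CEBIP at 1.46 from LHCP, 0.49 from RBCS and 0.59 from PSAH. Of the 37 other photosynthesis genes, the nearest to LHCP was PORA at 0.46, the nearest to RBCS was RCABP69 at 0.37 and the nearest to PSAH was CAB2R at 0.16. Over 4 arrays that fall into 2 years, such distances mostly rank genes by the size of their change between the years.

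The nearest measured genes on either side of each member, in the gene order of the reference annotation, had changes between −0.49 and 0.77 log2. Beside LHCP, LOC9266588 changed by 0.31 (adjusted p = 0.14) and LOC4333361 by 0.01 (adjusted p = 0.96). Beside RBCS, LOC4351964 changed by −0.15 (adjusted p = 0.58) and LOC9271488 fell by 0.49 (adjusted p = 0.042). PSAH has its flanking genes with no other gene between, and of these LOC4339592 rose by 0.77 (adjusted p = 0.016) and LOC4339594 changed by 0.43 (adjusted p = 0.059).

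Other measures moved with the years as well. Of 20 measured panicle and floral organ genes, which mark the labelled tissue, 19 did not pass and 1, MADS58, fell by 0.73 (adjusted p = 0.017). Their summed intensity was 42061 for WT and 47848 for ago2-1 in 2013 and 41405 and 45043 in 2014. The brightest probe sets rule such sums, here and for the lists below, so the sums do not weigh the genes alike. The meristem genes had no call among 5 (adjusted p = 0.091 to 0.90 by limma). On the deposited scale, which carries the shift between the years, 13 of the 20 and all 5 meristem genes passed higher, and MADS58 did not pass, at −0.13 (adjusted p = 0.34). Among these markers MADS1 lay at 12.76 to 12.99 on the 4 arrays and OSH1 at 11.19 to 11.52, whereas FZP was dim at 2.81 to 3.01. MADS15 changed by −0.18 (adjusted p = 0.33) on its brightest probe set, but another fell by 0.66 (adjusted p = 0.023 by limma). Its remaining probe sets changed by 0.06 (adjusted p = 0.73) and −0.41 (adjusted p = 0.068).

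Where 10.8% of all 17905 genes passed lower, 5 of 8 measured tapetum and pollen wall genes, which mark the anther, fell and none rose. Their summed intensity was 8562 and 6328 in 2013 and 5583 and 4173 in 2014, and CYP703A3, a fatty acid hydroxylase, fell by 1.93 (adjusted p = 0.0068). On the deposited scale 2 of the 8 passed lower, CYP703A3 and PTC1, and EAT1 passed higher, by 0.54 (adjusted p = 0.015). RAFTIN1 (LOC4345929), 1 of the 5 that fell, also differed between the genotypes. Its log2 difference, ago2-1 minus WT, was −2.13 in 2013 and −1.78 in 2014. The limma fit that blocks for year called it (adjusted p = 0.022) and no other of the 8. The fit that leaves the block out called none of the 8. Of 3 measured genes listed for leaf and bundle sheath, PPDKB, a pyruvate phosphate dikinase, rose by 0.77 (adjusted p = 0.015) beside RCA, and LIR1 did not pass. The summed intensity of these 3 genes was 1179 and 1666 in 2013 and 1675 and 1865 in 2014. In bulk tissue, more cells of a type and more RNA per cell cannot be told apart.

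The 4 clock genes were listed as another measure that moves with the years. That all 4 changed is therefore a description and no separate result. LHY, a morning gene, lay at 6.60 and 6.66 in 2013 and at 12.64 and 12.79 in 2014 (change 6.08, adjusted p = 0.000282), though a second, dim probe set fell by 0.53 (adjusted p = 0.036). Of the evening genes, PCL1 fell by 6.03 (adjusted p = 0.000282), GI fell by 3.15 (adjusted p = 0.0016) and PRR1 fell by 2.98 (adjusted p = 0.0013). The part of the clock genes, of the anther genes and of the leaf genes in the rise of LHCP, RBCS and PSAH was not tested.

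**Figure D5:**
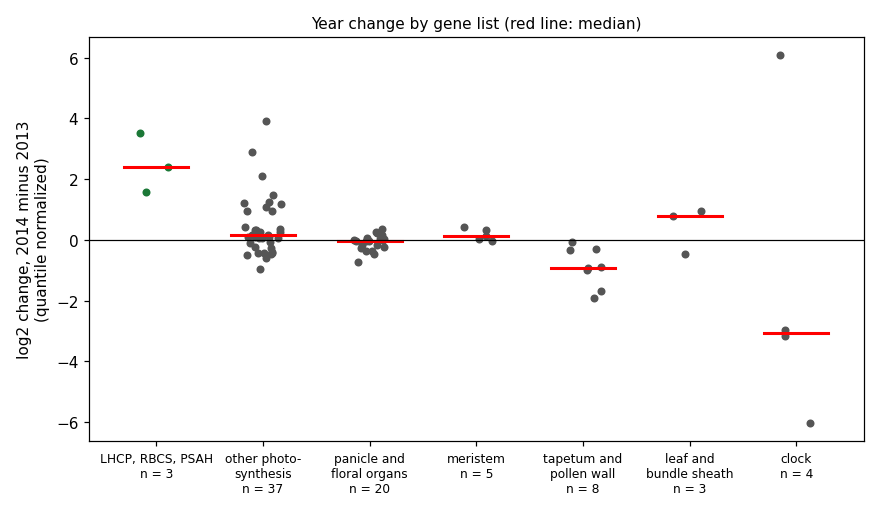
Log2 change from 2013 to 2014 (vertical axis, quantile normalized) of each measured gene by list, 1 point a gene, with the median as a red line; RCA and LIR1 stand in both the photosynthesis and the leaf list. Panicle and meristem genes lie near 0, with medians of −0.03 and 0.13, the tapetum genes have a median of −0.91, and the 4 clock genes run from −6.03 to 6.08.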

How the data were processed

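The members and gene lists were chosen with earlier results of these data known. The authors deposited 1 intensity per probe set and array, on a linear scale; per the submitters' processing notes the tool was RMA, of unstated version. Within a year the sorted values of both arrays lay within 0.12 log2 of each other, while the years differed in scale, so log2 values (no pseudocount) were quantile normalized over the 4 arrays. One label describes RNA from a brain tissue, which cannot be these panicles, so how RNA was extracted is unknown.

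All 57194 probe sets were fitted with limma 3.58.1 in R 4.3.3 (lmFit, eBayes, two-sided), with Benjamini-Hochberg adjustment over all of them and a threshold of 0.05. Genotype was fitted alone, with year as a block as an alternative; year was fitted with a genotype term. The years in the titles mark a shared season and so pair the samples; deviations from the genotype means correlated (r = 0.76 over probe sets) between the arrays of a year. The code was tested on simulated data with independent noise, without the pairing by year seen here, so that test does not cover the pairing. The number of arrays limits the precision.

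Genes were named through the platform's annotation and the RefSeq table of assembly ASM3414082v1, whose coordinates are not printed because the array names no build. By rule, all member probe sets, genes nearest in profile, clock genes and any listed gene called between the genotypes were to be named. Of each list, the 2 genes with the largest rise and the 2 with the largest fall were to be named too. Some genes that this rule covers were left out, among them GLO5, GLO3, RSH1, OSH6, MADS34, APO2 and DL. A planned choice of relatives by protein identity and a planned search for promoter motifs were not run, because no sequence was used here. Flanking genes, second probe sets, and the nearest genes of any name and of the photosynthesis lists were added after the values were seen. So were RBCS1, CFBP1, CHLH, GSA, GLK2, ndhM, FNR (LOC4342399), MADS1, FZP and EAT1. After the symbols were seen, RCAR5, PAP2 and RCN1 were dropped from lists, as names of unlike genes, and RCABP69 was moved to the light-harvesting list. The alternatives are other scalings, a limit to brighter probe sets, other prior variances, other probe sets of a gene, no genotype term and leaving out each array.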

Additional observations from a re-analysis of the deposited data

Results flagged for a closer look

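For all 6 member probe sets the difference between the genotypes had opposite signs in the 2 years, with 1 array per genotype in each year, and this was not tested. The difference of 2014 minus that of 2013 was −0.39 log2 for LHCP and −0.23 for PSAH. For RBCS it was −0.44 (Os.12594.1.S1_x_at), −0.37 (Os.39038.1.A1_at), −0.31 (Os.39363.1.A1_x_at) and −0.41 (Os.49262.1.A1_x_at). The crossing held for 6 of 6 probe sets on the deposited scale, after median centring and after cyclic loess. These settings were added after seeing the data, and 21.1% to 23.4% of all probe sets showed the crossing under them. As deposited, the sorted values of both arrays of a year lay within 0.12 log2 of each other. Rescaling could therefore hardly change a difference within a year. The 6 probe sets stand for 3 genes, and the 4 of RBCS are not separate evidence. Of the 37 other photosynthesis genes 9 showed the crossing, among them CAB2R and RCABP69, where 20.5% of all genes did.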

How the results depend on the processing

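The rise from 2013 to 2014, for which the members were chosen on these same arrays, kept its direction under every setting tried. These settings reuse the chosen values, so the kept direction is no separate evidence. On the deposited scale the rise was 4.15 for LHCP, 3.01 for RBCS and 2.18 for PSAH. The mean over the 4 RBCS probe sets was 1.37 against 2.40 for the brightest. Without 1 array it ran from 3.41 to 3.63 for LHCP, 2.27 to 2.55 for RBCS and 1.51 to 1.66 for PSAH. The paired fit with year as a replicate block called 67 probe sets between the genotypes against 1 without it and 29 on the deposited scale, and changed no call of a member. Without adjustment, 684 of the 57194 probe sets had a p under 0.05 by limma without the block. That is fewer than a threshold of 0.05 would pass by chance alone. In that fit the change between the years counts as spread.

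No member passed the genotype test in any setting. Only the fit with year as a block keeps the change between the years, for which the members were chosen, out of the spread. The difference of LHCP, −0.00063 by the fit without a block, was 0.0046 after median centring. With 1 array left out the genotypes no longer share both years, so the differences then ran from −1.86 to 1.85 for LHCP, −0.88 to 0.82 for PSAH, and for the RBCS probe sets from −1.37 to 1.25, −0.53 to 0.66, −0.86 to 0.77 and −0.47 to 0.36. Members below the median intensity, 2 RBCS probe sets, have no value in the limit to brighter ones.

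Of the 37 other photosynthesis genes, 28 were called higher and 0 lower in 2014 on the deposited scale, where 0.71 log2 is the shift of all probe sets. Without 1 array 0 to 10 were called higher and 0 to 1 lower, with 0 of both without either array of 2014. With no genotype term the counts were 10 and 2, and with the lists as first written 10 and 3, a setting chosen after seeing the data. Also chosen then, the deposited scale moved the counts of higher and lower genes from 0 and 1 to 13 and 0 of 20 panicle genes, from 0 and 0 to 5 and 0 of 5 meristem genes and from 0 and 5 to 1 and 2 of 8 tapetum genes; median centring and cyclic loess changed none of these counts. Dim probe sets have no background measure here, so the sizes of their changes are not settled.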
